A study of Homo sapiens with 36 samples.

Results

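Transcripts of 8 transcription factor genes were followed through the induction of neurons from human stem cells labelled WT, RAI1 Het and RAI1 Knockout. The 8 genes are the 4 POU class III genes POU3F1, POU3F2, POU3F3 and POU3F4, and the cortical layer genes CUX1, CUX2, TBR1 and BCL11B. They were taken by symbol from the 62710 genes in the deposited tables, and all 8 were found. POU3F4 was included because its counts were absent from WT and present in KO on day 3, so its day 3 values in those genotypes are a description and carry no test.

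The cells were of H9, an established human embryonic stem cell line, and carried NGN2 under doxycycline control. NGN2 is a proneural factor that turns stem cells into neurons. Cells labelled WT, RAI1 Het (called HET here) and RAI1 Knockout (KO) were sampled on days 0, 3 and 7, as 9 groups of 4 biological replicates (36 libraries). Every group carried the inducible NGN2 system and, from induction on, grew in neuronal medium with B27, GDNF, NT3 and CultureOne. The labels do not say how many edited clones stand behind HET and KO, so a difference between genotypes cannot be told apart from a difference between clones.

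POU class III proteins bind DNA through a POU-specific domain joined to a homeodomain, and act in the developing nervous system, often beside SOX proteins. POU3F2, also called BRN2, is used with other factors to convert fibroblasts into neurons and is expressed with POU3F3 in upper-layer cortical neurons. CUX1 and CUX2 mark upper-layer cortical neurons, while TBR1 and BCL11B (CTIP2) mark and specify deep-layer neurons. NGN2-induced neurons are excitatory and are often described as cortex-like, which is why these layer genes are examined in such cultures.

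The sequences just upstream of the 4 POU3F starts are shown because these genes are compared with each other throughout, and because POU3F4 was read in some lines and not in another. The starts are those of RefSeq; for POU3F3 it lies upstream of the GENCODE start given further on, so that the stretch ends before that gene model. They are RefSeq sequence on GRCh38.p14, written 5′ to 3′ on the strand of the gene, with the box CCAAT, or its reverse complement ATTGG, in capitals. The stretches are chr1:38046795-38047043 on the minus strand for POU3F1, and chr6:98834324-98834573, chr2:104853865-104854114 and chrX:83508040-83508260 on the plus strand for POU3F2, POU3F3 and POU3F4.
POU3F1: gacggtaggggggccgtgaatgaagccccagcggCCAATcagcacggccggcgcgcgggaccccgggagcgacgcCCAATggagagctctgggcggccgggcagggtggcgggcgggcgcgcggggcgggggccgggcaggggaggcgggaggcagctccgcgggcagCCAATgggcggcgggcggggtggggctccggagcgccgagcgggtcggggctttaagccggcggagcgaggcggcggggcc
POU3F2: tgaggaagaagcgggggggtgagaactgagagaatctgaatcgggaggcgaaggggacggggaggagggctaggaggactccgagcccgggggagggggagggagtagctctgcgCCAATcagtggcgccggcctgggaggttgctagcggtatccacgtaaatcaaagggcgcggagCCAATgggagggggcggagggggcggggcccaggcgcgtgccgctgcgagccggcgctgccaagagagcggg
POU3F3: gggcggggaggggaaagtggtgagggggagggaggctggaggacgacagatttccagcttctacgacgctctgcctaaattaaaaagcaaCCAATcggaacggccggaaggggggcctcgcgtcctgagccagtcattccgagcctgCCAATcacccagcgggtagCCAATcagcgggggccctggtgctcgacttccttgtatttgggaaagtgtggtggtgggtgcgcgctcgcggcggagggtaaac
POU3F4: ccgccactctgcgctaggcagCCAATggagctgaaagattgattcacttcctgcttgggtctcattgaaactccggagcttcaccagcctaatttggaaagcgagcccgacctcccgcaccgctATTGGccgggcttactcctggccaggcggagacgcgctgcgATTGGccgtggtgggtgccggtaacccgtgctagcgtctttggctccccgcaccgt

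The CCAAT box was chosen after the sequences had been read. POU3F1, POU3F3 and POU3F4 each held 3 copies in the 300 bases around the RefSeq start and POU3F2 held 2. Among 35114 RefSeq windows of that length, 34.6% held at least 1 copy on either strand and 3.26% held at least 3. In POU3F1, POU3F2 and POU3F3 all copies ran with the gene, and in POU3F4 a single copy did and 2 ran against it. The octamer ATGCAAAT, a site of POU proteins, was in none of the 4 windows and in 1.77% of all windows. The E-box CAGATG was also in none of the 4 and in 14.7% of all. These matches describe the letters only.

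Libraries held 23.9 M to 56.7 M counts, all under a single batch label. Small structural RNAs such as RN7SL1 took 2.84% to 27.5% of the counts in HET day 7 libraries, and 14.5% to 25.6% in WT day 7 libraries. RAI1 itself was not lower in the libraries labelled HET or KO: its mean on day 0 was 33.3 ± 8.26 CPM (counts relative to the library total after TMM scaling, SD, n = 4) in WT, 38.0 ± 7.84 in HET and 37.0 ± 12.3 in KO. On day 7 the RAI1 mean was 52.1 ± 14.8 CPM in WT, 73.1 ± 16.2 in HET and 86.7 ± 16.2 in KO, with overlapping libraries. The counts therefore do not check the genotype labels, and all directions below follow the libraries as labelled. The levels of members are compared with each other only in TPM, which is per length. Sums over lists of marker genes are in CPM, which is not per length.

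Among the POU class III genes, POU3F4 had the widest contrast between genotypes. Its protein is needed for inner ear development, and it is expressed in the embryonic brain. POU3F4 (ENSG00000196767) lies on the X chromosome at 83508261 to 83512127 on the plus strand, and the provisional transcript Z82170.1 overlaps it on the other strand. No read was assigned to it in any of the 12 WT libraries, which together held 487 M counts. A count of 0 in that total allows a level of up to 0.00616 CPM, counting error only.

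On day 0, before induction, POU3F4 stood at 0.722, 2.05, 3.07 and 1.00 CPM in HET and at 2.02, 4.23, 5.5 and 3.85 CPM in KO. Each HET and KO library was thus above all WT libraries, while HET and KO overlapped each other. Against 3 counts over the WT group the mean was at least 203-fold higher in KO (edgeR adjusted p = 0.000329) and at least 89.0-fold higher in HET (edgeR adjusted p = 0.00129; 0.194 in limma on log2(TPM + 1)). Between KO and HET the ratio of means was 2.28 and the edgeR adjusted p was 0.773. POU3F4 was the only member of 7 tested that passed in either comparison with WT on day 0, where 2.08% of all 20437 tested genes passed in KO (1.66% as higher) and 1.63% in HET (1.22% as higher).

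On day 3 POU3F4 reached 19.0, 5.21, 11.1 and 22.8 CPM in HET and 70.8, 28.8, 63.9 and 65.9 CPM in KO. The 4 KO libraries lay above the 4 HET libraries, and WT stayed at 0. These values chose the gene and are given without a test: the KO mean was at least 3414-fold and the HET mean at least 866-fold above 3 counts over the WT group, and the KO mean was 3.94 times the HET mean. Within HET, whose libraries the choice did not use, the rise from day 0 to day 3 was 3.08 on the log2 scale (SE 0.82, edgeR adjusted p = 0.0075). With the share of small structural RNAs as covariate it was 1.60 log2 (adjusted p = 0.0126).

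By day 7 POU3F4 stood at 6.5, 2.49, 5.4 and 10.3 CPM in KO, and all 4 libraries were below those of KO day 3. In HET it was at 22.5, 1.76, 1.88 and 8.94 CPM, a spread that overlapped both the KO libraries of that day and the HET libraries of day 3. Both genotypes were above WT again, KO at least 314-fold (edgeR adjusted p = 0.000865) and HET at least 446-fold (edgeR adjusted p = 0.00201), and the ratio of KO to HET was 0.703 (edgeR adjusted p = 0.81). Without HET replicate 1 that ratio was 1.47, and HET was at least 213-fold above WT. From day 3 to day 7 HET had an edgeR adjusted p of 0.474. HET replicate 1, the highest of its group, also led its group in small structural RNAs, at 27.5% of counts against 2.84% to 13.4%, and the part of that in its POU3F4 level was not tested.

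**Figure D1:**
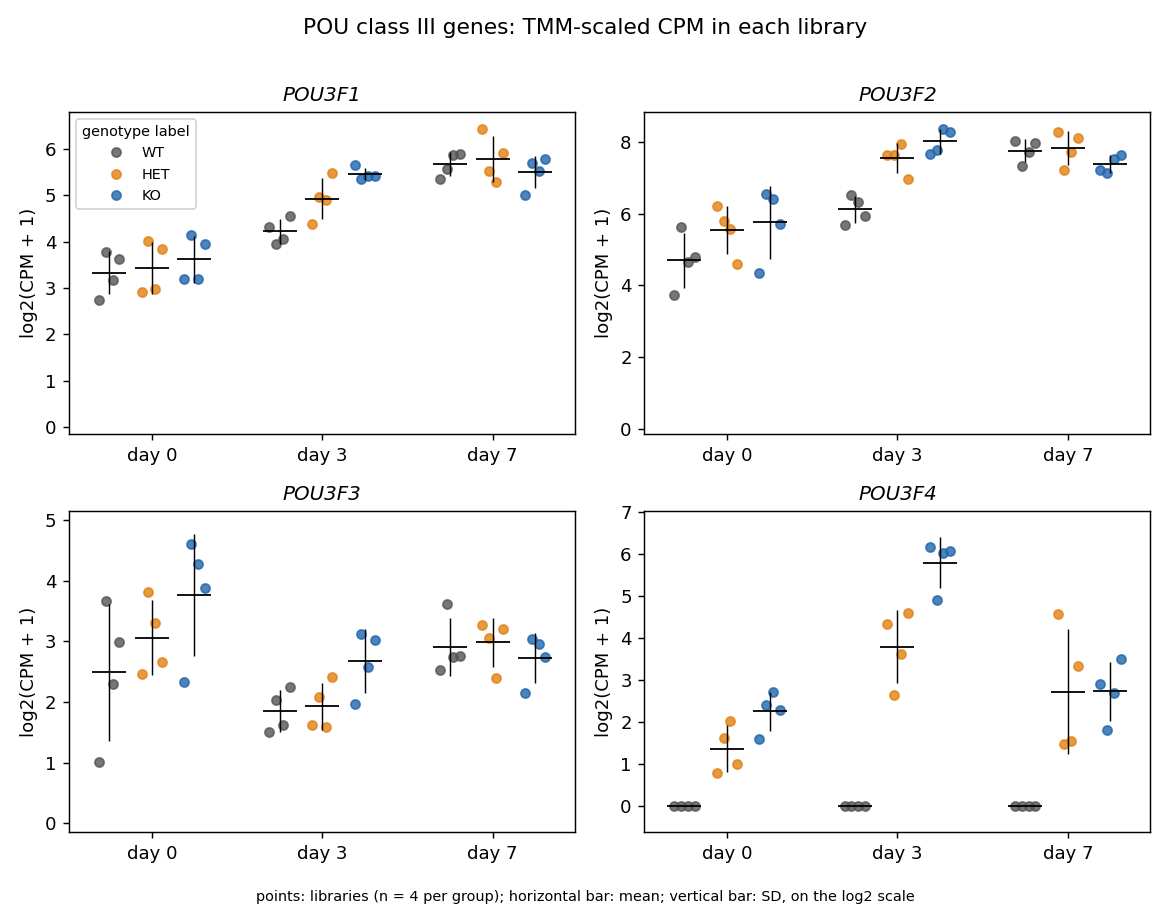
TMM-scaled CPM of the 4 POU class III genes on a log2(CPM + 1) axis by day, 1 point per library (n = 4 per group), with the mean and SD on that scale. POU3F4 is at 0 in all 12 WT libraries and highest in KO on day 3 (28.8 to 70.8 CPM), whereas the WT, HET and KO points of the other 3 genes overlap on days 0 and 7.

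POU3F2 (ENSG00000184486, chromosome 6, 98834592 to 98839470, plus strand) was the most abundant of the 4 per length in every group. Its day 3 level was 50.4, 91.2, 79.7 and 60.4 CPM in WT, 200.3, 199, 246 and 126 CPM in HET, and 204, 220.2, 329 and 311 CPM in KO. No HET or KO library overlapped WT. The difference from WT was 1.92 on the log2 scale in KO (SE 0.25, edgeR adjusted p = 0.000174) and 1.45 in HET (SE 0.25, edgeR adjusted p = 0.00497). KO remained past the threshold in each alternative tried. In limma on log2(TPM + 1) the HET difference was 1.59 with an adjusted p of 0.335.

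POU3F1 (ENSG00000185668, also called OCT6, chromosome 1, 38044611 to 38046794, minus strand), known for its role in Schwann cells and in neural commitment, was the next most abundant by group mean of TPM. In KO on day 3 its mean of 10.1 ± 6.1 TPM was close to the 9.05 ± 5.17 TPM of POU3F4, and their libraries overlapped. On day 3 POU3F1 stood at 18.9, 14.4, 15.7 and 22.5 CPM in WT, 19.9, 30.0, 28.7 and 43.4 CPM in HET and 49.3, 39.8, 41.9 and 41.7 CPM in KO. All KO libraries were above all WT libraries, and HET overlapped WT. KO was higher by 1.28 log2 (SE 0.22, edgeR adjusted p = 0.0012), with an adjusted p of 0.0652 in limma on log2(TPM + 1). HET differed by 0.77 log2 (SE 0.22, edgeR adjusted p = 0.0809). With the replicate number as a block, which the pairing of the libraries allowed here, the HET difference was 0.76 log2 and passed (edgeR adjusted p = 0.0266); it also passed in DESeq2 (adjusted p = 0.0262) and without HET day 3 replicate 1 (adjusted p = 0.031).

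POU3F3 (ENSG00000198914, also called BRN1, chromosome 2, 104855511 to 104858574, plus strand), expressed with POU3F2 in upper-layer neurons, was far lower. On day 3 it was at 1.85, 3.10, 2.09 and 3.74 CPM in WT, 2.09, 3.23, 2.00 and 4.32 CPM in HET and 2.90, 7.70, 4.98 and 7.14 CPM in KO. The KO and WT libraries overlapped. KO was higher by 1.08 log2 (SE 0.36) and only just passed (edgeR adjusted p = 0.0477). The adjusted p was 0.126, 0.0693 and 0.113 without WT replicates 1, 2 and 3, and 0.138, 0.0619 and 0.0741 without KO replicates 2, 3 and 4. With the replicate block, which the pairing allowed, the difference was 1.06 log2 (edgeR adjusted p = 0.00153), and KO was above WT in 4 of 4 pairs. It did not pass in limma on log2(TPM + 1) (adjusted p = 0.165), with the share of small structural RNAs as covariate (0.0558) or in the fit of all 36 libraries (0.108).

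Together, 3 of the 7 members tested were higher in KO than in WT on day 3 and none was lower, where 21.6% of all 21563 genes passed, 12.6% as higher and 8.93% as lower. In HET 1 of 7 passed, where 3.28% of all genes did, 2.52% as higher. The blocked fit gave 3 of 7 in HET: POU3F1, POU3F2 and BCL11B, which was lower by 3.17 log2 (edgeR adjusted p = 0.0381). Between KO and HET no member of 7 passed in edgeR at day 3, where 4.35% of all genes did. POU3F3 had an edgeR adjusted p of 0.159 there, and was the single one past the threshold with the replicate block (0.96 log2, edgeR adjusted p = 0.00972). Pairing was not found for KO with HET, whose libraries share only a number.

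On day 0 the POU3F1, POU3F2 and POU3F3 libraries of the genotypes overlapped. POU3F2 was at 12.3, 48.3, 24.0 and 26.6 CPM in WT, 73.2, 54.6, 47.1 and 23.4 CPM in HET and 19.3, 93.8, 85.0 and 51.4 CPM in KO. POU3F3 was at 1.01, 11.7, 3.92 and 6.92 CPM in WT and 4.02, 23.2, 18.4 and 13.7 CPM in KO. In both genes replicate 1 was the lowest and replicate 2 the highest library of WT and of KO. The POU3F3 difference of KO from WT was 1.36 log2 (SE 0.64, edgeR adjusted p = 0.415), and 1.46 log2 with the replicate block, which the pairing of KO with WT allowed and under which it passed (edgeR adjusted p = 0.0392), making 2 members of 7 in place of 1. That blocked fit also held the HET libraries of day 0, for which pairing with WT or KO was not found.

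By day 7 the 3 genes did not separate the genotypes. POU3F2 was at 263, 160.2, 209 and 249 CPM in WT, 313, 149, 212 and 276 CPM in HET and 148, 141, 183 and 201 CPM in KO. POU3F1 was at 39.7, 46.3, 57.5 and 58.7 CPM in WT, 84.8, 44.9, 38.2 and 59.5 CPM in HET and 30.9, 50.5, 45.2 and 54.1 CPM in KO. All 3 groups overlapped for both genes. The edgeR adjusted p values of POU3F1, POU3F2 and POU3F3 against WT lay between 0.197 and 0.947 in KO and HET.

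The time courses show how the levels came together. In WT, POU3F2 rose from day 0 to day 3 by 1.33 log2 (SE 0.32, edgeR adjusted p = 0.00246) and again from day 3 to day 7 by 1.65 (SE 0.32, edgeR adjusted p = 0.000716). The early rise in WT did not pass with the share of small structural RNAs as covariate (1.02 log2, adjusted p = 0.184) or in limma on log2(TPM + 1) (0.35 log2, adjusted p = 0.314). In KO it rose by 2.09 (SE 0.37, edgeR adjusted p = 0.000253) in the early interval. In the later interval the KO difference was -0.67 (SE 0.36, edgeR adjusted p = 0.142). The change from day 3 to day 7 was smaller in KO than in WT by 2.31 log2 (SE 0.52, edgeR interaction adjusted p = 0.00175), and this held in every alternative tried.

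POU3F1 followed the same course. It rose in WT by 0.91 log2 (SE 0.24, edgeR adjusted p = 0.004) and then by 1.51 (SE 0.24, edgeR adjusted p = 0.000114), and in KO by 1.87 (SE 0.24, edgeR adjusted p = 1.65e-05) in the early interval. Its KO level then differed between day 7 and day 3 by 0.06 log2 (SE 0.23, edgeR adjusted p = 0.858). The interaction from day 3 to day 7 was -1.44 (SE 0.41, edgeR adjusted p = 0.0121), with an adjusted p of 0.243 in limma on log2(TPM + 1). On that TPM scale the early rise in WT was not seen (-0.05 log2, adjusted p = 0.873).

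POU3F1 and POU3F2 were the 2 of 7 members that passed this interaction, where 18.6% of all 24764 genes did. From day 0 to day 3 no member of 7 passed the interaction between KO and WT, where 8.42% of all genes did. In HET no member of 7 passed in either interval, where 0.279% and 4.82% of all genes did. From day 0 to day 3 POU3F3 fell in HET, with a difference of -1.47 log2 (SE 0.38, edgeR adjusted p = 0.00677), and in KO, with -1.38 (SE 0.44, edgeR adjusted p = 0.0155; 0.0566 without KO day 0 replicate 2). In WT it was -1.14 (SE 0.52, edgeR adjusted p = 0.072). It was -1.50 without WT day 0 replicate 1 (adjusted p = 0.00526) and -0.58 without WT day 0 replicate 2 (adjusted p = 0.339).

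The composition of the family can be read within a library, where scaling between libraries drops out. POU3F2 made up 62.98% ± 6.55 of the summed POU3F TPM in KO on day 3 (SD, n = 4), 71.4% ± 11.9 in HET and 66.9% ± 9.2 in WT. POU3F4 made up 17.5% ± 5.2 in KO, from 11.1% to 23.9% by library, and 7.31% ± 4.56 in HET. POU3F3 made up 11.2% ± 4.7 in WT on day 0 but 2.84% ± 0.81 on day 3 and 2.56% ± 1.58 on day 7. POU3F1 ranged from 18.0% ± 3.8 in KO day 3 to 34.2% ± 6.6 in WT day 0. On day 7 POU3F4 was back at 3.02% ± 1.34 in KO and 2.64% ± 2.34 in HET.

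**Figure D2:**
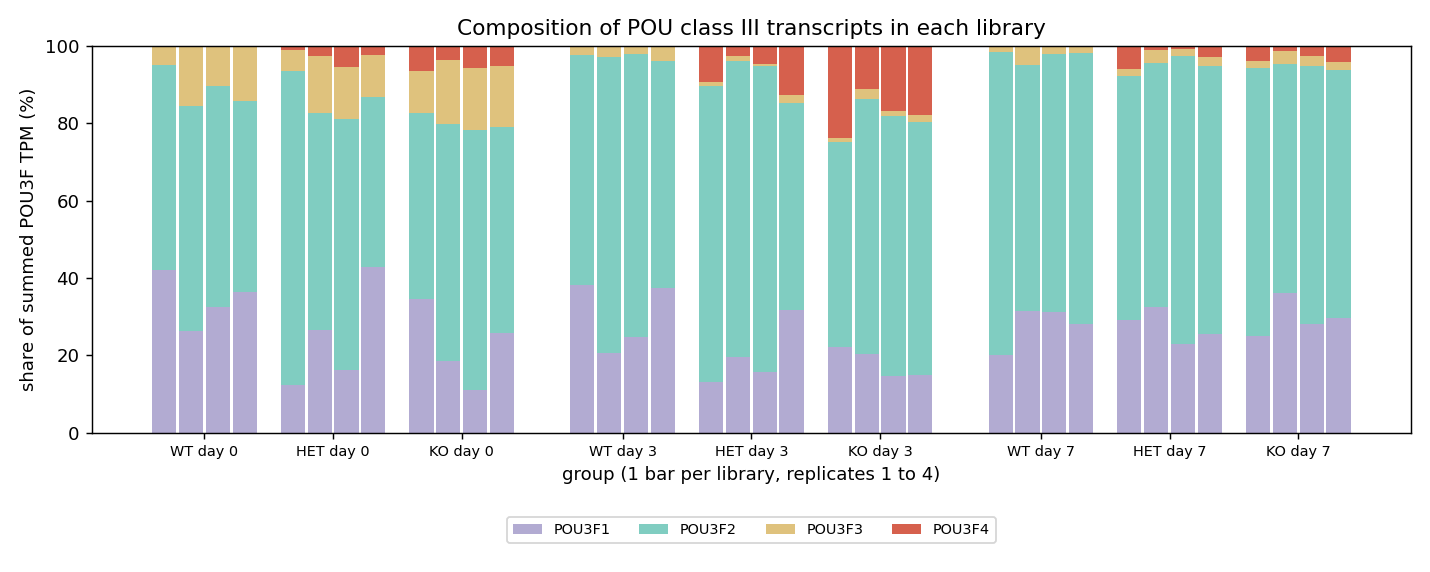
Share of each POU class III gene in their summed TPM, 1 stacked bar per library, grouped by genotype and day. POU3F2 is the largest share in every library, and POU3F4 is absent from WT bars and takes 11.1% to 23.9% of KO day 3 bars.

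The cortical layer genes showed their differences on day 7. CUX2 (ENSG00000111249, chromosome 12, 111034024 to 111350554, plus strand), the upper-layer marker that promotes dendrite branching, was at 5.2, 22.4, 16.9 and 25.1 CPM in WT, 16.5, 32.8, 41.3 and 24.5 CPM in HET and 37.4, 43.8, 50.2 and 42.5 CPM in KO. All KO libraries were above all WT libraries, and HET overlapped both. KO was higher by 1.28 log2 (SE 0.39, edgeR adjusted p = 0.0234), with adjusted p values of 0.0559 without WT replicate 3 and 0.0583 without KO replicate 3. HET differed by 0.71 log2 (SE 0.39, edgeR adjusted p = 0.241).

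CUX1 (ENSG00000257923, chromosome 7, 101815904 to 102283958, plus strand) encodes the related homeodomain protein, and its locus also encodes CASP, a Golgi protein that counts per gene do not separate from it. On day 7 it was at 98.7, 111, 110.2 and 114 CPM in WT, 106, 81.5, 78.8 and 72.9 CPM in HET and 75.6, 82.9, 84.0 and 67.8 CPM in KO. All KO libraries lay below all WT libraries, opposite to CUX2. CUX1 was lower in KO, with a difference of -0.52 log2 (SE 0.14, edgeR adjusted p = 0.013). Without a filter on low counts the adjusted p was 0.0521, and in limma on log2(TPM + 1) the difference was -0.03 (adjusted p = 0.974). In HET the difference was -0.36 (SE 0.14, edgeR adjusted p = 0.101). Without HET replicate 1 it was -0.52 and passed (adjusted p = 0.00361), and in limma on log2(TPM + 1) it was 0.49 (adjusted p = 0.339).

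TBR1 (ENSG00000136535, chromosome 2, 161416094 to 161425870, plus strand), which specifies layer 6 neurons, was near the limit of detection throughout, with 0 to 39 counts per library. On day 7 it stood at 1.20, 0.357, 0.407 and 0.48 CPM in WT, 0.18, 0.108, 0.0989 and 0.0396 CPM in HET and 0.157, 0.156, 0.0848 and 0.0312 CPM in KO. No HET or KO library reached the lowest WT library. TBR1 was lower by 2.47 log2 in KO (SE 0.55, edgeR adjusted p = 0.00483) and by 2.42 in HET (SE 0.56, edgeR adjusted p = 0.0118), and both held with each library left out in turn. Fitted with the share of small structural RNAs as covariate, the HET difference was -2.08 and did not pass (adjusted p = 0.0926). The longer gene SLC4A10 overlaps TBR1 on the same strand, so some reads could be shared.

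BCL11B (ENSG00000127152, chromosome 14, 99169287 to 99271524, minus strand), which directs subcerebral projection neurons, was at 4.93, 4.33, 1.72 and 1.17 CPM in WT on day 7. It was at 0.077, 0.27, 0.124 and 0.0396 CPM in HET and at 1.98, 0.571, 0.792 and 0.655 CPM in KO. All HET libraries were below all WT and all KO libraries, while KO overlapped WT. BCL11B was lower than WT by 4.49 log2 in HET (SE 0.67, edgeR adjusted p = 0.00134). It also passed with each library left out in turn, at -5.13 without HET replicate 2. In KO the difference was -1.62 (SE 0.56, edgeR adjusted p = 0.0395) and -2.23 without KO replicate 1, with adjusted p values of 0.116 and 0.104 without WT replicates 1 and 2, and 0.112, 0.103 and 0.0926 without KO replicates 2, 3 and 4.

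KO exceeded HET for BCL11B by 2.87 log2 on day 7 (SE 0.66), with an edgeR adjusted p of 0.0524. It passed under several alternatives, with adjusted p values of 0.000659 in DESeq2, 0.0177 with no filter and 0.0483 without HET replicate 2. POU3F2 passed with the share of small structural RNAs as covariate (-0.66 log2, adjusted p = 0.0274). In edgeR without these changes no member passed between KO and HET on day 7, where 1.4% of all genes did. On day 0 HET was again the lowest: BCL11B was at 2.82, 1.80, 1.61 and 2.37 CPM in WT, 0.99, 0.673, 0.537 and 0.869 CPM in HET and 7.68, 1.44, 2.00 and 2.61 CPM in KO. No HET library reached the lowest library of either, but the edgeR adjusted p was 0.21 against WT and 0.066 against KO, where 0.856% of all genes passed. KO exceeded HET by 2.15 log2, and by 1.38 without KO replicate 1; it passed without KO replicate 2 (adjusted p = 0.0229).

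In all, 5 of 8 members passed between KO and WT on day 7 (CUX2 and POU3F4 higher, CUX1, TBR1 and BCL11B lower), where 32.6% of all 21714 genes passed, 17.0% as higher and 15.6% as lower. In HET 3 of 8 passed (POU3F4 higher, TBR1 and BCL11B lower), where 14.4% of all genes did, 8.31% as higher and 6.1% as lower. In limma on log2(TPM + 1) POU3F4 was the only member past the threshold in either genotype, and the TPM of TBR1 and BCL11B in all 12 libraries of that day lay between 0 and 0.23, far below that pseudocount.

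**Figure D3:**
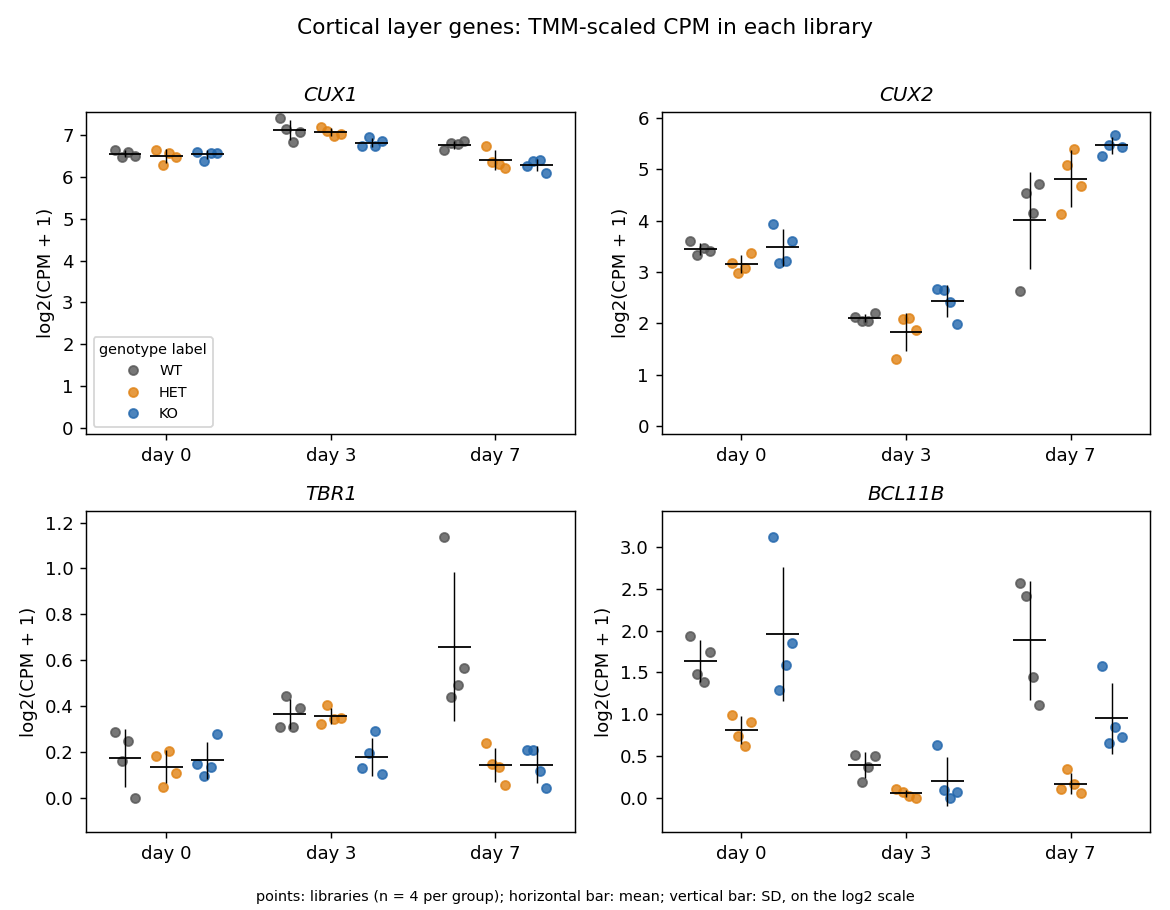
TMM-scaled CPM of CUX1, CUX2, TBR1 and BCL11B on a log2(CPM + 1) axis by day, 1 point per library (n = 4 per group), with the mean and SD on that scale. On day 7 the KO points of CUX2 lie above those of WT, the KO points of CUX1 lie below them, and TBR1 and BCL11B stay under 5 CPM in every library but for BCL11B in KO replicate 1 of day 0, at 7.68 CPM.

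On day 3 the layer genes separated the genotypes less. CUX1 was at 170.1, 141, 113 and 135 CPM in WT and 105, 124, 107 and 114 CPM in KO, which overlapped (edgeR adjusted p = 0.151). CUX2 was at 3.34, 3.14, 3.12 and 3.64 CPM in WT and 5.35, 5.27, 4.37 and 3.00 CPM in KO (edgeR adjusted p = 0.27). TBR1 was at 0.24, 0.359, 0.24 and 0.314 CPM in WT and 0.0951, 0.146, 0.223 and 0.0737 CPM in KO. The TBR1 groups did not overlap, but the difference of -1.09 log2 (SE 0.40) did not pass (edgeR adjusted p = 0.0659; 0.0447 without KO replicate 3).

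BCL11B on day 3 had 6 to 23 counts per WT library and at most 3 in HET, and in KO it had 23 counts in replicate 1 and 0 to 3 in the others. The KO difference from WT was -0.91 log2 (SE 0.84, edgeR adjusted p = 0.464) with all libraries and -2.92 without KO replicate 1, when it passed (adjusted p = 0.0268). It was -0.51 without KO replicate 3 and -0.59 without KO replicate 4. The HET difference was -3.02 (SE 1.02, edgeR adjusted p = 0.158), and passed only with the replicate block or in the fit of all 36 libraries (adjusted p = 0.046).

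**Figure D4:**
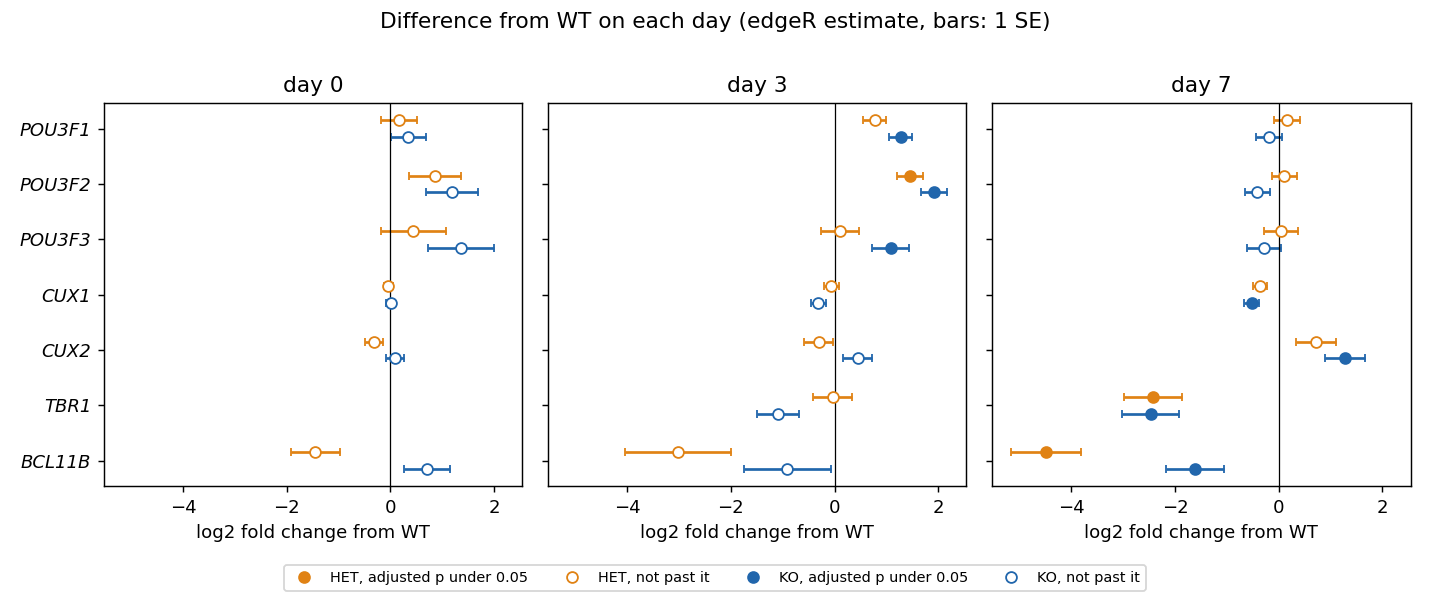
Log2 fold change from WT of HET and KO on each day for the 7 members other than POU3F4, which had 0 counts in WT, with 1 SE bars from edgeR; filled points had an adjusted p under 0.05. The filled points are POU3F2 in both genotypes, POU3F1 and POU3F3 in KO on day 3, and TBR1 and BCL11B in both genotypes, CUX1 and CUX2 in KO on day 7; TBR1 was too low to test on day 0.

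Over time the 2 CUX genes moved in opposite directions in every genotype. In WT, CUX1 rose from day 0 to day 3 by 0.57 log2 (SE 0.13, edgeR adjusted p = 0.0017) while CUX2 fell by 1.61 (SE 0.35, edgeR adjusted p = 0.00106). With the share of small structural RNAs as covariate the CUX2 difference was -0.92 and did not pass (adjusted p = 0.331). From day 3 to day 7 CUX2 rose by 2.41 (SE 0.35, edgeR adjusted p = 6.41e-05) and CUX1 fell by 0.36 (SE 0.13, edgeR adjusted p = 0.0358). That late fall of CUX1 in WT was lost with the replicate block (adjusted p = 0.077), with that covariate (0.239) and without any of WT day 3 replicate 1 (0.0882) and WT day 7 replicates 1, 2 and 3 (0.0813, 0.0607 and 0.0635).

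In HET the late rise of CUX2 was 3.45 (SE 0.33, edgeR adjusted p = 4.41e-06) and the late fall of CUX1 was 0.64 (SE 0.15, edgeR adjusted p = 0.00396). In KO they were 3.26 (SE 0.23, edgeR adjusted p = 1.00e-07) and 0.54 (SE 0.11, edgeR adjusted p = 0.00114). The early rise of CUX1 in KO was 0.29 (SE 0.11, edgeR adjusted p = 0.0385). With library size alone it was 0.16 (adjusted p = 0.28). The call was lost without any of KO day 0 replicates 1 to 4 (adjusted p = 0.0555, 0.125, 0.0691 and 0.0706) and without KO day 3 replicates 2 and 4 (0.0747 and 0.0559). The interaction of CUX2 from day 3 to day 7 was 0.88 log2 in KO (SE 0.43, edgeR adjusted p = 0.167) and 1.03 in HET (SE 0.43, edgeR adjusted p = 0.202).

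BCL11B fell on induction in each genotype, with log2 differences of -2.76 in WT (SE 0.48, edgeR adjusted p = 0.00018), -4.30 in HET (SE 0.64, edgeR adjusted p = 0.000135) and -4.34 in KO (SE 0.87, edgeR adjusted p = 0.000713). The KO value was -3.58 without KO day 0 replicate 1 and -6.32 without KO day 3 replicate 1. From day 3 to day 7 it rose by 3.24 in WT (SE 0.48, edgeR adjusted p = 7.32e-05). In KO it rose by 2.56 (SE 0.86, edgeR adjusted p = 0.0251), a value of 4.54 without KO day 3 replicate 1, and the call was lost without KO day 3 replicates 2, 3 or 4 (adjusted p = 0.0685, 0.0597 and 0.062) or KO day 7 replicate 1 (0.088). In HET the difference was 1.78 (SE 0.70, edgeR adjusted p = 0.0597), and 1.14 without HET day 7 replicate 2.

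Counted over the time courses, 5 of 7 members tested changed from day 0 to day 3 in WT, 7 of 7 in HET and 6 of 6 in KO, where 60.0%, 48.3% and 59.3% of all genes did. From day 3 to day 7 the counts were 6 of 7, 4 of 7 and 3 of 6, where 46.2%, 41.2% and 47.8% of all genes passed. POU3F4 was not tested over time in KO and had no counts in WT. TBR1 was filtered out as too low in the HET and KO time courses and in all 3 comparisons of day 0, where its counts ran from 0 to 8 per library.

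Per length, the members covered a wide range. In WT on day 7 the mean TPM was 13.7 ± 2.32 for POU3F2 (SD, n = 4), 10.0 ± 2.2 for CUX1 and 5.49 ± 1.55 for POU3F1. It was 0.92 ± 0.60 for CUX2, 0.523 ± 0.383 for POU3F3, 0.117 ± 0.090 for BCL11B and 0.0425 ± 0.0206 for TBR1. POU3F2 and CUX1 overlapped over libraries, as did CUX2 and POU3F3, and BCL11B and TBR1. TPM in a library moves with its small structural RNAs, which took 47.9% to 86.5% of it.

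Genes fixed as lists with earlier results of these data known were counted beside the members, and give the cell types against which the 8 genes are read. Of 10 pan-neuronal markers, 9 were higher in KO and 4 in HET on day 3, where 12.6% and 2.52% of all genes were. Of these markers 5 and 4 were higher on day 7, where 17.0% and 8.31% of all genes were, with no marker lower on either day. Their median was 2.47 log2 in KO and 1.51 in HET on day 3, against -0.05 and 0.02 over all genes. STMN2, a neuronal growth protein, was at 747 ± 237 CPM in KO, 313 ± 192 in HET and 64.7 ± 24.9 in WT on day 3 (SD, n = 4). The summed level of the pan-neuronal list on day 3 ran from 1367 to 1699 CPM in WT, 1976 to 4642 in HET and 4851 to 8108 in KO, the order that the group means of POU3F1, POU3F2 and POU3F4 also had. The part of neuronal content in those differences was not tested, and in bulk RNA fewer cells of a type and less RNA per cell cannot be told apart.

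The other POU genes gave 4 of 7 tested higher in KO on day 3, with a median of 1.20 log2 against -0.05 over all genes, and 2 of 7 in HET, where 12.6% and 2.52% of all genes were higher. POU4F1, a sensory neuron factor also called BRN3A, was at 70.3 ± 38.0 CPM in KO and 3.11 ± 3.17 in WT, a rise of 4.49 log2 (SE 0.80, edgeR adjusted p = 0.00142). On day 7 POU4F1 stood at 279 ± 122 CPM in KO, 88.5 ± 44.5 in HET and 35.4 ± 9.9 in WT, and POU2F2 was lower in both, at 30.7 ± 3.2 and 38.3 ± 12 CPM against 83.8 ± 10.6.

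Partners and reported targets of POU class III factors split by gene. On day 3 SOX4 and SOX11, the SoxC factors that act in newborn neurons, rose in KO by 1.82 log2 (SE 0.17, edgeR adjusted p = 1.77e-05) and 1.69 (SE 0.24, edgeR adjusted p = 0.00029). DLL1, a Notch ligand of neural progenitors, was lower by 2.09 (SE 0.62, edgeR adjusted p = 0.0277). In HET, SOX4 and PAX6 rose. In all, 2 of 9 tested rose and 1 fell in KO, near the 12.6% and 8.93% of all genes, and 2 rose in HET, where 2.52% of all genes did. On day 7 SOX2 and PAX6, progenitor factors, were the 2 of 10 that were lower in KO, near the 15.6% of all genes. PAX6 was at 1.66 ± 1.81 CPM against 22.0 ± 5.5 in WT. In HET 1 of 10 was higher, SOX11 by 0.54 log2 (SE 0.16, edgeR adjusted p = 0.0377), near the 8.31% of all genes.

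Other deep-layer genes were lower beside TBR1 and BCL11B. On day 7, 6 of 9 deep-layer genes tested were lower in KO and 4 in HET and none was higher, with medians of -1.11 and -1.04 log2 against -0.04 and 0.00 over all genes, where 15.6% and 6.1% of all genes were lower. BCL11A, the paralog of BCL11B, was at 17.9 ± 10.5 CPM in WT, 2.34 ± 1.51 in KO and 1.66 ± 0.50 in HET, and NFIB at 9.77 ± 3.36, 0.378 ± 0.272 and 0.615 ± 0.169. Among the upper-layer genes, LMO4 rose in KO by 0.83 log2 (SE 0.18, edgeR adjusted p = 0.00351). On day 3, 5 of 10 upper-layer and 4 of 9 deep-layer genes were higher in KO and 1 was lower in each list, where 12.6% and 8.93% of all genes were.

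Genes of forebrain patterning were sparse. Of 9 dorsal factors 3 could be tested on day 3 and 5 on day 7. NEUROD1, a target of NGN2, rose in KO on day 3 by 2.01 log2 (SE 0.34, edgeR adjusted p = 0.000987) and was lower on day 7, at 12.8 ± 5.2 CPM against 457 ± 84 in WT (-5.18 log2, SE 0.58, edgeR adjusted p = 6.82e-05). Of 5 ventral and GABAergic genes tested on day 7, 2 were higher in KO and 1 in HET, GAD2 among them, where 17.0% and 8.31% of all genes were higher. Of 8 peripheral and sensory genes, 5 were higher and 1 lower in KO on day 3, where 12.6% and 8.93% of all genes were. PRPH was higher by 3.39 log2 (SE 0.60, edgeR adjusted p = 0.00133). On day 7, 2 of these 8 were higher and 3 lower in KO, where 17.0% and 15.6% of all genes were. In HET 1 was higher and 2 lower, where 8.31% and 6.1% of all genes were.

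Pluripotent stem cell markers summed to 2371 to 5190 CPM on day 0 over all genotypes. On day 7 the sums were 127 to 174 CPM in WT, 161 to 249.6 in HET and 338 to 400 in KO. In KO that sum was mostly LIN28A, an RNA-binding protein of stem cells, at 253 ± 39 CPM against 23.7 ± 7.3 in WT. The list was split: of 4 markers tested in KO on day 7, 2 were higher and 2 lower, where 17.0% and 15.6% of all genes were. DPPA4 was lower, at 6.76 ± 3.89 CPM against 32.7 ± 4.4 in WT (-2.29 log2, SE 0.37, edgeR adjusted p = 0.00066). Glial and neural crest markers summed to 91.4 to 214 CPM in WT on day 7, 93.3 to 150.5 in HET and 45.1 to 132 in KO. Of 7 tested, 2 were higher and 1 lower in KO, where 17.0% and 15.6% of all genes were. The part of these cell markers in the levels of the 8 genes was not tested.

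Likeness of pattern was taken as Pearson's r of log2(CPM + 1) over the 36 libraries, which share genotype and day, as a description over 16551 genes. The 5 genes most like POU3F4 were FAM174A (r = 0.886), IRAK4 (0.858), LINC00467 (0.856), EDA2R (0.849) and LINC02693 (0.843). FAM174A also had 0 CPM in WT on all days and 9.34 CPM in KO on day 3, and EDA2R, like POU3F4 on the X chromosome, had a WT mean of at most 0.00584 CPM and 15.2 CPM in KO on day 3. Unlike POU3F4, FAM174A had similar HET and KO means on day 3, 8.29 and 9.34 CPM. For POU3F3 the closest gene was PANTR1 (r = 0.885), the long noncoding RNA beside it, and for POU3F2 SLITRK1 (0.915). For POU3F1 it was USP35 (0.966), for CUX2 GNB5 (0.966) and for CUX1 TIAM2 (0.916). TBR1 and BCL11B had looser partners, STAC3 (0.75) and NBAT1 (0.771). Among the members themselves POU3F1 and POU3F2 were closest (r = 0.852), and CUX1 and CUX2 were the most opposed (r = -0.734).

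Of the 7 protein-coding genes within 2 megabases of POU3F4, all lie after it and 6 had counts in WT. RPS6KA6 and HDX were at 14.7 and 14.4 CPM in WT on day 0, and APOOL and ZNF711 at 18.4 and 20.6 CPM, in a genotype where POU3F4 had no counts. On day 3 HDX was at 8.32 CPM in WT and 18.5 CPM in KO. CYLC1, the nearest at 349 kilobases, had 0 counts in WT as POU3F4 did and was highest in KO on day 3, at a mean of 0.0561 CPM, and SATL1 and POF1B stayed at or under 0.305 CPM in every group mean.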

How the data were processed

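Total RNA depleted of ribosomal RNA was sequenced from 36 libraries. The authors deposited expected counts per gene, made with cutadapt 4.8, STAR 2.7.8a and RSEM 1.3.3 on GRCh38 per the submitters' processing notes; all were whole numbers. TPM values were deposited by the authors beside them. The annotation and the use of strand are not given in the sources used here. Positions are from GENCODE on GRCh38, which matched 92.9% of the genes. Features for reporters, at most 0.0171% of a library, were left out of library sizes and tests. The depth of 23.9 M to 56.7 M counts sets the floors, which cover counting error only. The labels call replicates biological but do not tie them to separate clones.

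Genotypes were compared within a day (12 libraries), days within a genotype (12) and changes over time as interactions (36), in R 4.3.3. Counts were scaled by TMM, filtered with filterByExpr and tested by the quasi-likelihood method of edgeR 4.0.16, with p-values adjusted by Benjamini-Hochberg over all genes tested and called under 0.05. SEs are the estimate divided by the root of its F. A fold against a group at 0 counts is a lower bound against 3 counts over the group. All 8 members were named, with up to 3 of the largest called changes per list at 5 CPM or more. POU3F4 was untested wherever WT or KO libraries of day 3 entered, a rule widened from the KO with WT contrast of day 3 and the early interaction after the files had been seen. Members and lists were chosen with earlier results of these data known, and some list genes are not reported here.

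Same-numbered libraries were taken as pairs where all 4 correlations of their deviations exceeded 0.1: KO with WT on day 0 (0.254 to 0.628) and day 3 (0.139 to 0.548), and HET with WT on day 3 (0.169 to 0.768). The evidence for pairing is from the data. A blocked fit within a day held all 12 libraries of that day, including genotypes not found to be paired with each other. Alternatives were DESeq2 1.42.0 and its size factors, library size alone, limma 3.58.1 on log2(TPM + 1) and log2(TPM + 0.1), no filter, the replicate block, all 36 libraries, the share of small structural RNAs as covariate, and leaving out each library. Scripts were tested on simulated counts. Figures were drawn with matplotlib 3.10.9.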

Additional observations from a re-analysis of the deposited data

Results flagged for a closer look

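Of 69 groups of 4 libraries with any counts for a member, 6 had a library far from the other 3, where chance gives about 1 in 20. POU3F3 was at 11.2 CPM in WT day 7 replicate 2 and at 4.74 to 5.74 CPM in the others. KO day 3 replicate 2 had 28.8 CPM of POU3F4 beside 63.9 to 70.8 CPM in the others, and small structural RNAs took 3.54% of its counts, the least in that group. In CUX1 the outlying library was KO day 0 replicate 2, at 82.8 CPM beside 94.6 to 96.5 CPM. TBR1 was at 1.20 CPM in WT day 7 replicate 1, against 0.357 to 0.48 CPM. BCL11B was apart in replicate 1 of KO on day 3 (0.547 CPM, against 0 to 0.0625) and on day 7 (1.98 CPM, against 0.571 to 0.792). The causes were not tested.

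The change from day 3 to day 7 differed between KO and WT for POU3F2 (-2.31 log2, edgeR interaction adjusted p = 0.00175) and POU3F1 (-1.44 log2, edgeR interaction adjusted p = 0.0121). For POU3F2, KO was above WT in 4 of 4 libraries on day 3 and overlapped it on day 7.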

How the results depend on the processing

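Of 47 differences of a member past the threshold in edgeR, 16 stayed past it in the same direction in every refit. Over their 813 refits 706 did, 105 lost the threshold and 2 changed sign. A further 72 differences passed under no setting. For these only the signs were compared, a choice made after the flips had been seen: 111 of 1390 refits had the other sign. Those 2 were POU3F1 from day 0 to day 3 in WT in limma on log2(TPM + 1) and log2(TPM + 0.1), at -0.0462 and -0.0639 log2. Among differences past the threshold in some refits but not in edgeR, the same 2 settings gave the other sign for BCL11B in KO on day 3 (0.0067 and 0.035) and CUX1 in HET on day 7 (0.49 and 0.52). The cause was not tested.

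Numbers of members past the threshold are given next where they moved by over 1.5 times. With limma on log2(TPM + 1) they were 0 in HET on days 0 and 3, 1 in KO on day 3, 1 in KO and 1 in HET on day 7, 3 in each interval in WT, 2 and 1 in the early and late interval in HET, 1 in the late interval in KO and 1 in the late interaction of KO. With log2(TPM + 0.1) they were 0 in HET on day 3, 1 in KO and 1 in HET on day 7, 3 and 4 in the early interval in WT and HET, 1 in the late interval in HET and in KO, and 1 in the late interaction of KO. With the replicate block they were 2 in KO on day 0 and 3 in HET on day 3, where the numbers paired the libraries, and 2 in HET on day 0 and 1 for KO against HET on each day, where they share only a number; no other count moved so. DESeq2 gave 2 in HET on day 3. KO against HET had 1 on day 0 with DESeq2, no filter or the small structural RNA covariate. On day 7 it had 1 with DESeq2, its size factors, no filter or all 36 libraries, and 2 with the covariate. The covariate gave 2 in the early interval in WT. The fit of all 36 libraries gave 2 in HET on day 3.

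With 1 library left out the numbers ran from 0 to 1 for KO against HET on days 0 and 7, 1 to 2 in HET and 2 to 4 in KO on day 3, 3 to 5 in KO and 3 to 4 in HET on day 7, 4 to 6 in the late interval in WT and the early one in KO, 2 to 3 in the late one in KO, and 0 to 1 for the early interaction of KO and the late one of HET. TBR1, at 0 to 39 counts, and BCL11B on day 3 are limited by depth.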
